A study of Mus musculus with 22 samples.

Results

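Type IV collagen genes were taken from a peak table of kidney RNA as every row whose gene name is Col4a followed by 1 digit. The rule found 30 of the 9857 peaks and 5 of the 4909 genes. Col4a4 held 9 of these peaks, Col4a3 held 5, Col4a1 held 3, Col4a2 held 11 and Col4a6 held 2. Col4a5 was not analysed here. Peaks had been listed separately for db/db kidneys, which gave 12 of the 30, and for db/m kidneys, which gave 18. Where peaks of the same strand overlapped they were joined into 1 region, represented by the peak with the most reads, which left 19 regions of 6542 in the whole table. Regions are numbered from the 5' end of each gene.

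The study compared kidneys of male db/db mice, homozygous for a leptin receptor mutation and a common model of type 2 diabetes, with kidneys of male db/m mice, the heterozygous controls. RNA from 6 db/db and 5 db/m kidneys was sequenced both as an ac4C immunoprecipitate (IP), in which an antibody pulls down fragments carrying N4-acetylcytidine, and as RNA-seq without the antibody, the input. The labels name the kidney and the genotype and no treatment. Their age at sampling is not given in the sources used here. The labels number the libraries without stating that each number is a separate mouse. Each number is called an animal below, and the p-values measure only the spread between these samples, which may be technical.

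Type IV collagen is the sheet-forming collagen of basement membranes, built from chains that wind into trimers and join end to end into a network. Chains encoded by Col4a1 and Col4a2 are made in almost every tissue, whereas those encoded by Col4a3, Col4a4 and Col4a5 form the network of the mature glomerular basement membrane, where podocytes supply them, and also occur in some tubular basement membranes. Loss of a chain of the glomerular network causes Alport syndrome, and thickening of the glomerular basement membrane is a classic lesion of diabetic nephropathy. The genes lie in head-to-head pairs that share a promoter region.

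That arrangement is visible in the RefSeq gene models of GRCm38.p6, which place Col4a3 at chr1:82586921-82722059 on the plus strand and Col4a4 at chr1:82448419-82587034 on the minus strand. Their outermost extents overlapped by 114 bases. Col4a1 (chr8:11198423-11312889, minus strand) and Col4a2 (chr8:11312805-11449287, plus strand) overlapped by 85 bases. The Col4a6 and Col4a5 models on chromosome X were 1274 bases apart. The stretches between the annotated starts of each autosomal pair are shown on the plus strand, since they are where the genes of a pair meet: the stretch on chromosome 1 lies between the starts and holds neither, and that on chromosome 8 is shared by both gene models. Capitals mark a GC box (GGGCGG).
Col4a4 start to Col4a3 start, chr1:82586850-82586920: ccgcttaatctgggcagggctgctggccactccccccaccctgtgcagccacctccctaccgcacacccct
Col4a2 start to Col4a1 start, chr8:11312805-11312826: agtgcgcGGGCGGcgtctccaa

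Windows running from 250 bases before to 50 bases after the start were searched on both strands for a CCAAT box, for a GC box (GGGCGG) and for a TATA box (TATAAA), each on its own, so that matches of different motifs may overlap. Over 32851 RefSeq promoter windows, 37.4% held a CCAAT box, 35.7% held a GC box and 13.6% held a TATA box. The Col4a1 and Col4a2 windows, which overlap each other, both held a CCAAT box and a GC box, the Col4a6 window held a GC box, and the Col4a4 window held none of the 3 motifs. GC content was 74.0% for Col4a1, 73.7% for Col4a2 and 63.3% for Col4a4, against a median of 52.7% over all windows. No window was read for Col4a3.

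Reads falling in peaks numbered 7577171 to 9862426 in the db/db IP libraries and 9125099 to 10293757 in the db/m IP libraries. RNA-seq libraries held 3160992 to 3352535 such reads in db/db and 3151035 to 3265239 in db/m. Values below are CPM, reads scaled to the library's total in peaks, after TMM scaling, a correction for library composition, and each peak was tested by the quasi-likelihood test of edgeR with Benjamini-Hochberg adjustment over all 9857 peaks. A peak was called at an adjusted p under 0.05 with an absolute log2 change over 1. Peak spans run across introns and no exon annotation was used, so exonic, intronic and UTR positions are not given and levels are not set between genes.

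The libraries of db/m animal 2 stood apart before any gene was tested. A 5'-to-3' index was taken over genes outside type IV collagen, from the log2 ratio of reads in the most 5' peak to reads in the most 3' peak. The ratio of each gene was centred on its mean over the libraries of the same type. The index of a library is the median of these centred ratios, so it is relative to the other libraries and is not the ratio itself. For db/m animal 2 it was 0.46 in the RNA-seq library over 455 genes. The other db/m RNA-seq libraries lay between -0.17 and 0.04 and the db/db libraries between -0.22 and 0.21. The IP library of db/m animal 2 was at 0.62 over 542 genes, again the highest. Results are therefore given with all animals and, where stated, also without this one. A second sample, db/db animal 6, lay closer to db/m than the other db/db animals. Over peaks outside type IV collagen, with the db/m mean set to 0 and the mean of the other db/db animals to 1, it had a median position of 0.51 in the RNA-seq and 0.55 in the IP, against 0.93 to 1.28 and 0.88 to 1.14 for the other 5. In all 9 regions of Col4a3 and Col4a4 it lay inside the range of the other db/db animals.

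Reads of both glomerular chains were lower in db/db kidneys in part of their regions. By adjusted p with no fold threshold, 4 of 5 Col4a4 regions passed in each library type, and without db/m animal 2 regions 3, 4 and 5 passed in both and region 2 in the RNA-seq only. Col4a3 passed in 1 of 4 regions in the IP and 2 of 4 in the RNA-seq, and in none without that animal. All 14 Col4a3 and Col4a4 peaks had a log2 change below 0 in the IP and in the RNA-seq, with a median over their 9 regions of -1.10 in the IP and -0.95 in the RNA-seq, while the median over all peaks was 0.00 and -0.01. Peaks of the same region overlap and are not separate observations. Col4a3 regions 1, 2 and 4 and Col4a4 region 1 were listed only in db/m kidneys. They entered the table through the genotype in which they were higher, so their direction is a description and not support. Col4a1 region 1 and Col4a2 region 2 were also listed only in db/m kidneys. Without db/m animal 2 the 9 regions had a median of -0.69 in the IP and -0.57 in the RNA-seq. The 14 peaks of the widely expressed chains Col4a1 and Col4a2 held no call in either library type, and none of them passed the adjusted p. In bulk kidney, fewer cells of a type and less RNA per cell cannot be told apart. Within the 30 peaks, 4 were called in the IP, all lower in db/db, where 1.72% of all peaks were called lower and 1.59% higher. In the RNA-seq 3 of the 30 were called, again lower, against 1.97% of all peaks called lower and 1.98% higher. Without db/m animal 2 both counts were 0. With no fold threshold 10 of the 30 peaks passed as lower in the IP (3.38% of all peaks) and 11 in the RNA-seq (5.93% of all peaks), and every one of them lay in Col4a3 or Col4a4.

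**Figure D1:**
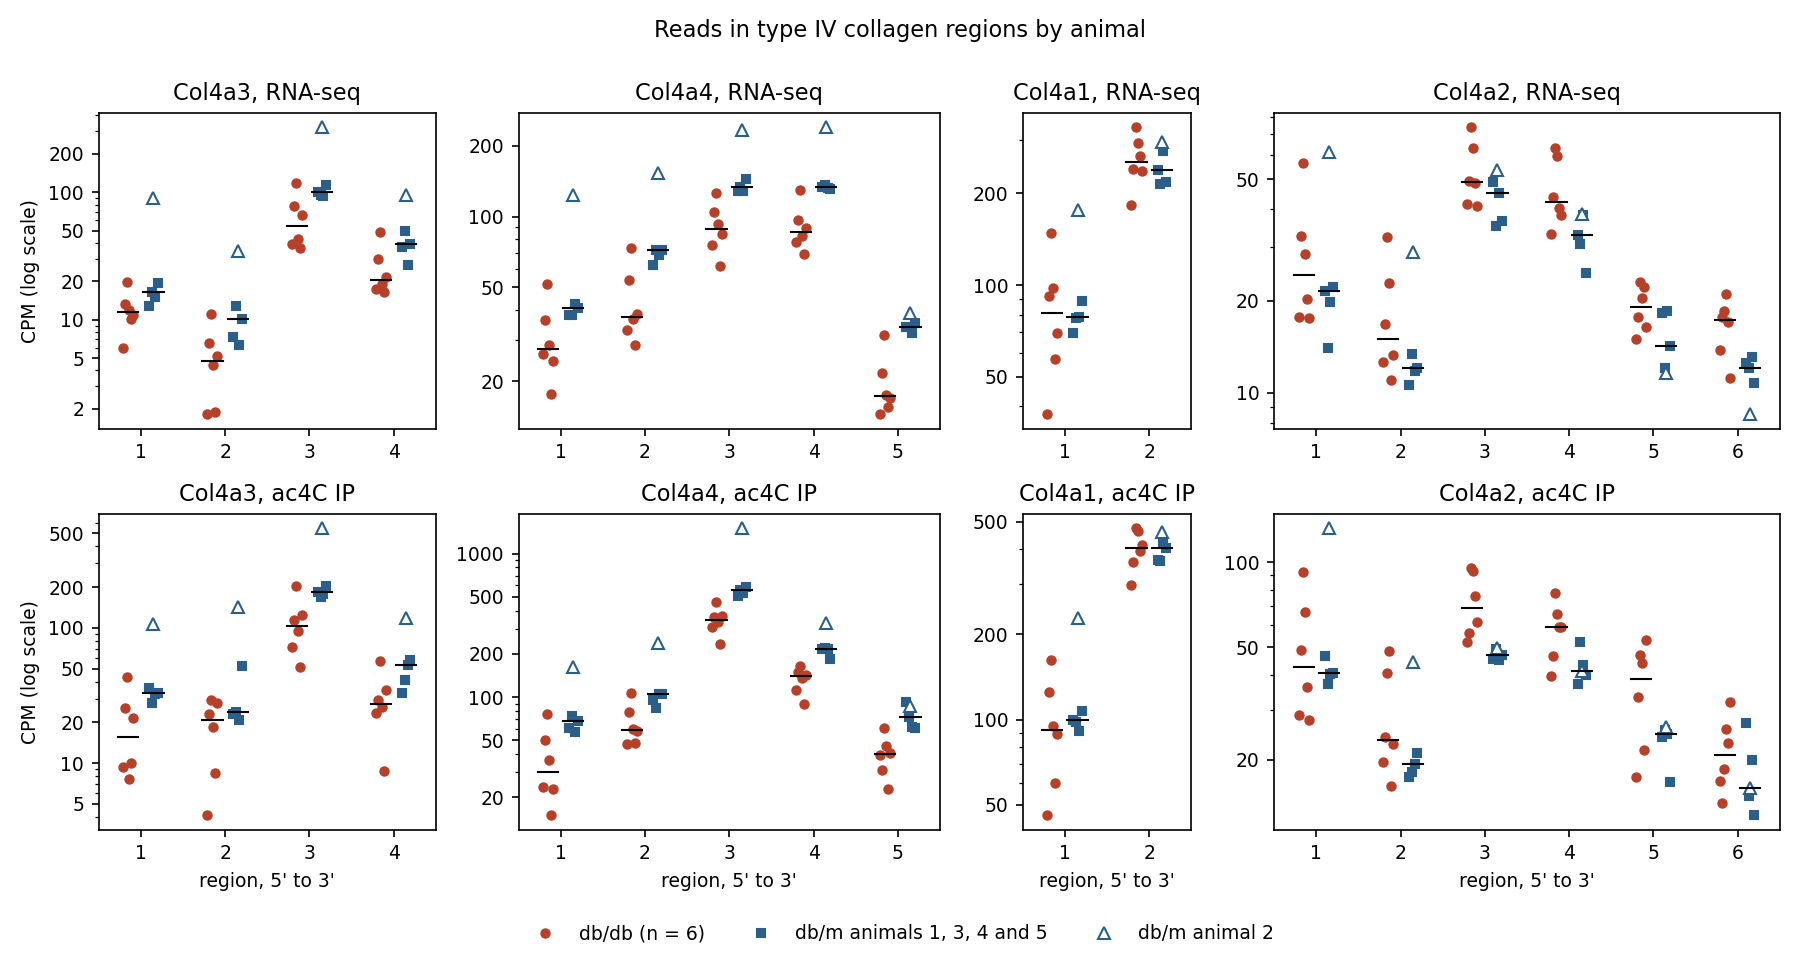
TMM-scaled CPM (log scale) of each region, numbered 5' to 3', in each animal, with RNA-seq in the upper row and ac4C IP in the lower row. Red points are the 6 db/db animals, blue squares db/m animals 1, 3, 4 and 5, the open triangle db/m animal 2, and black lines the genotype medians. Col4a3 and Col4a4 medians are lower in db/db in every region, Col4a4 regions 3 and 4 do not overlap between genotypes in either row, and db/m animal 2 lies far above the other db/m animals toward the 5' end of every gene.

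Col4a4, which encodes a chain of the glomerular network whose loss causes a recessive form of Alport syndrome, held the regions in which the genotypes separated most often. Its region 4 (chr1:82471229-82480573) had the most RNA-seq reads of the gene. RNA-seq CPM there were 69.5 at the lowest, 85.8 at the median and 129.6 at the highest over the 6 db/db animals. The db/m animals 1 to 5 had 133.5, 239.8, 136.4, 132.1 and 131.2 CPM. Every db/db animal was below every db/m animal, and animals 1, 3, 4 and 5 of db/m lay within a few CPM of each other. The log2 change was -0.76 (SE 0.18, adjusted p = 0.0083, edgeR), and without db/m animal 2 it was -0.55 (adjusted p = 0.018). The IP counts of the same region ran from 89.5 through a median of 139.7 to 165.4 CPM in db/db. In db/m they were 217.7, 327.9, 218.4, 215.9 and 183.5 CPM. The genotypes did not overlap here either, and the IP log2 change was -0.81 (SE 0.18, adjusted p = 0.0081, edgeR), or -0.65 without db/m animal 2 (adjusted p = 0.017).

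Region 3 of Col4a4 (chr1:82484434-82491547) carried the most IP reads of any type IV collagen region over all libraries. Its IP CPM were 233.7, 346.9 and 459.5 (lowest, median and highest) in db/db. The db/m animals had 510.1, 1505.4, 553.8, 534.7 and 584.5 CPM. Animal 2 stood far above the rest, and the other db/m animals were still all above the highest db/db animal. The IP log2 change of -1.10 (SE 0.25, adjusted p = 0.011, edgeR) was a call, whereas without db/m animal 2 it was -0.67 and passed the adjusted p (0.0099) but not the fold threshold. In the RNA-seq the region had 61.6, 88.7 and 125.4 CPM in db/db against 128.4, 232.2, 133.8, 128.6 and 143.9 CPM in db/m. These did not overlap either, with a log2 change of -0.76 (SE 0.18, adjusted p = 0.010, edgeR).

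Nearest the 3' end, region 5 (chr1:82456789-82469489) ended 8370 bases short of the annotated end of the gene and was the Col4a4 region in which db/m animal 2 differed least from the others. Its RNA-seq CPM were 14.5, 17.3 and 31.4 in db/db and 34.0, 39.1, 34.0, 31.9 and 35.2 in db/m. The highest db/db value fell just under the lowest db/m value. The log2 change of -0.83 (SE 0.18, adjusted p = 0.0052, edgeR) was -0.78 without db/m animal 2 (adjusted p = 0.0086). IP CPM of region 5 were 23.0, 40.0 and 60.6 in db/db and 92.2, 86.3, 72.6, 61.7 and 60.5 in db/m. Here the highest db/db animal stood level with the lowest db/m animal, and the log2 change was -0.90 (SE 0.22, adjusted p = 0.017, edgeR).

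Toward the 5' end of Col4a4 the genotypes overlapped. In region 2 (chr1:82497278-82507066) the RNA-seq CPM were 28.4, 37.6 and 73.7 in db/db against 62.3, 153.7, 72.0, 68.6 and 72.2 in db/m. Only db/db animal 3 reached the db/m range, and the log2 change was -0.96 (adjusted p = 0.017, edgeR) or -0.64 without db/m animal 2 (adjusted p = 0.046). The IP change of region 2 was -0.92 (adjusted p = 0.046, edgeR) with all animals and -0.56 (adjusted p = 0.13) without animal 2. Region 1 (chr1:82525870-82532970), listed only in db/m kidneys, had log2 changes of -1.17 in the IP and -0.88 in the RNA-seq, and neither passed (adjusted p = 0.062 and 0.076, edgeR). Without db/m animal 2 these changes were -0.80 and -0.37 (adjusted p = 0.15 and 0.30, edgeR). RNA-seq CPM in 3 of the 5 Col4a4 regions separated every db/db animal from every db/m animal, a pattern seen with db/db below in 4.34% of all peaks. In the IP 2 of the 5 regions did, against 2.99% of all peaks.

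Col4a3 encodes the chain whose non-collagenous end is the target of antibodies in Goodpasture disease. Its region 3 (chr1:82679653-82682794) held most of its reads. RNA-seq CPM were 36.3, 54.7 and 118.5 in db/db and 100.4, 324.2, 95.9, 93.2 and 114.4 in db/m. Of the db/db animals 5 were below every db/m animal, and db/db animal 3 was above all db/m animals but animal 2. The log2 change was -1.19 (SE 0.34, adjusted p = 0.027, edgeR), which was a call. Without db/m animal 2 it was -0.66 and did not pass (adjusted p = 0.094). The IP of region 3 ran the same way, with 51.1, 104.0 and 204.0 CPM in db/db and 183.4, 547.0, 168.3, 178.0 and 204.1 CPM in db/m. Its log2 change of -1.22 (SE 0.34, adjusted p = 0.035, edgeR) was a call and became -0.74 (adjusted p = 0.094) without animal 2.

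The other Col4a3 regions had fewer reads and were listed only in db/m kidneys. Region 2 (chr1:82676762-82679125) was called in the RNA-seq, at -1.45 (SE 0.45, adjusted p = 0.045, edgeR), on 1.81 to 11.1 CPM in db/db and 6.38 to 34.7 CPM in db/m. Regions 1 (chr1:82660286-82662231) and 4 (chr1:82690617-82693524) had RNA-seq log2 changes of -1.35 and -0.95 with adjusted p = 0.055 and 0.051 (edgeR). Region 4 also overlaps the annotated gene C430014B12Rik, and since the counting did not use strand its reads cannot be assigned to Col4a3 alone. In the IP regions 1, 2 and 4 had log2 changes of -1.28, -1.50 and -1.03, and their adjusted p ran from 0.094 to 0.11. No Col4a3 region passed the adjusted p in either library type without db/m animal 2, although all 4 remained below 0, between -0.80 and -0.40 in the RNA-seq and between -0.74 and -0.64 in the IP.

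**Figure D2:**
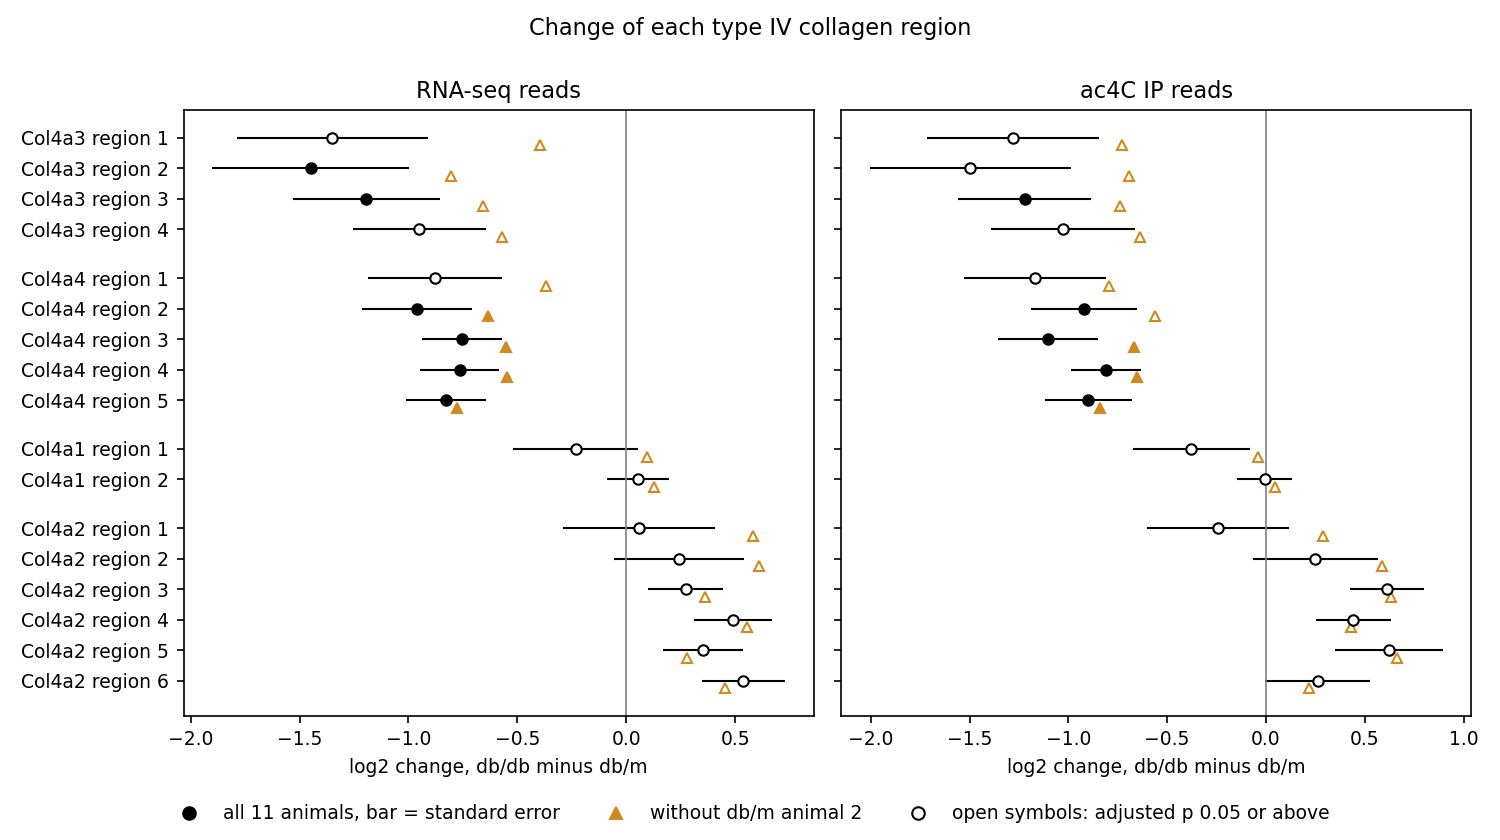
The log2 change (db/db minus db/m, points, with SE as bars) of each region from the edgeR fits, RNA-seq on the left and ac4C IP on the right. Filled points have an adjusted p under 0.05 and orange triangles give the change without db/m animal 2. All 9 Col4a3 and Col4a4 regions lie below 0 with and without that animal, closer to 0 without it, and no Col4a1 or Col4a2 point is filled.

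Within db/db, animal 3 had the highest RNA-seq CPM of all 9 glomerular regions and db/db animals 1 and 5 held the lowest. The same animal 3 was the db/db animal with the highest 5'-to-3' index, at 0.21 in the RNA-seq and 0.25 in the IP. Animals 2 of db/m and 3 of db/db thus stood high in reads of these genes and in the index, and the part of the index in the change between genotypes was examined by adding it to the fit as a covariate, a choice made after seeing the data. With the index in the model all 9 glomerular regions passed the adjusted p in the RNA-seq (at most 0.010) with a median log2 change of -0.71. In the IP 7 of the 9 did, with a median of -0.77, and the calls past the fold threshold were 1 region in the RNA-seq and 0 in the IP.

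The excess in db/m animal 2 followed position along the gene. For Col4a3, its RNA-seq CPM were 5.71 times the median of the other db/m animals in region 1, 3.96 times in region 2, 3.30 times in region 3 and 2.48 times in region 4. Col4a4 gave 3.13, 2.19, 1.77, 1.81 and 1.15 times from region 1 to region 5. The widely expressed chains showed the same order, from 2.26 to 1.30 times over the regions of Col4a1 and from 2.98 times in region 1 to 0.69 times in region 6 of Col4a2. In the RNA-seq the ratio fell from the 5' to the 3' end in all 4 genes, with regions 3 and 4 of Col4a4 the only neighbours in the other order. In the IP the most 5' region was again above the most 3' region in all 4 genes, but the order between was less regular, with Col4a3 at 3.28, 6.05, 3.03 and 2.50 times and Col4a4 at 2.49, 2.35, 2.77, 1.51 and 1.29 times.

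The log2 ratio of the most 5' to the most 3' region within a gene did not separate the genotypes. In the RNA-seq of Col4a4 it ran from 0.19 to 0.85 in db/db and from 0.17 to 0.42 in the db/m animals other than animal 2, which had 1.66. The difference between genotypes was 0.09 (exact permutation p = 0.80), and 0.38 without animal 2 (exact permutation p = 0.033). For Col4a1, Col4a2 and Col4a3 the RNA-seq differences were -0.32, -0.40 and -0.05, with exact permutation p of 0.28, 0.49 and 0.89.

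Col4a1 and Col4a2 encode the chains of the network found in nearly all basement membranes, including those of vessels, tubules and mesangium. Col4a1 region 2 (chr8:11212636-11220221), the most abundant in RNA-seq of the gene, had 183.7, 253.1 and 330.1 CPM in db/db and 238.4, 295.8, 215.3, 275.4 and 217.7 CPM in db/m. The ranges lay over each other, and the log2 change was 0.06 (SE 0.14, adjusted p = 0.85, edgeR). In the IP it was -0.01 (SE 0.14, adjusted p = 0.998), on medians of 402.4 CPM in both genotypes. Region 1 (chr8:11236484-11242199) gave -0.23 in the RNA-seq and -0.38 in the IP, with adjusted p = 0.65 and 0.52 (edgeR).

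Most Col4a2 regions had log2 changes above 0 without passing the test. Its 6 regions were at 0.06 to 0.54 in the RNA-seq and at -0.24 to 0.62 in the IP. The smallest adjusted p was 0.059 in the IP (region 3) and 0.081 in the RNA-seq (region 6). Without db/m animal 2, region 1 was at 0.58 in the RNA-seq and 0.29 in the IP (adjusted p = 0.20 and 0.63, edgeR). Region 2 was then at 0.61 and 0.59 (adjusted p = 0.15 and 0.25, edgeR). IP CPM of region 3 (chr8:11433757-11437644) were 52.4, 68.7 and 95.7 in db/db and 45.5, 49.9, 49.5, 45.0 and 47.0 in db/m. Every db/db animal was above every db/m animal, which held for 2.78% of all peaks, and the log2 change was 0.61 (SE 0.19, adjusted p = 0.059, edgeR). Its RNA-seq CPM overlapped, at 40.9, 48.9 and 74.0 in db/db and 48.8, 53.6, 35.0, 45.0 and 36.4 in db/m, with a log2 change of 0.27 (adjusted p = 0.34, edgeR). With the 5'-to-3' index in the model IP region 3 passed at 0.66 (adjusted p = 0.019, edgeR), and in the RNA-seq regions 2, 4 and 6 passed at 0.50, 0.55 and 0.53 (adjusted p = 0.039, 0.016 and 0.045, edgeR). Region 1 (chr8:11313469-11401183) spans 87715 bases and contains the annotated gene Gm46030, so its reads cannot be assigned to Col4a2 alone.

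Col4a6, the partner of Col4a5 in a network of other epithelia and smooth muscle, was hardly measured. Its regions at chrX:141208572-141216489 and chrX:141169702-141172211 had 35 and 4 reads over all 22 libraries, 20 of them in the IP library of db/db animal 2. No fold is given for it. The authors' peak caller gave these 2 peaks an FDR of 0.423 and 1.0.

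Exact permutation tests over the 462 splits of 11 animals were two-sided, with a smallest possible p of 0.0022. They assumed no form of distribution but took the animals as exchangeable between genotypes, which includes an equal spread. Of the 9 glomerular regions 8 had p under 0.05 and were lower in the IP, a share of 9.25% over all peaks. Col4a3 region 2 was the exception. In the RNA-seq 8 of the 9 were, against 15.3% of all peaks, and Col4a3 region 1 was the exception (exact p = 0.052). The 9 include the regions that were listed only in db/m kidneys. For Col4a2, regions 3 and 4 were higher in the IP (9.6% of all peaks) and regions 4 and 6 in the RNA-seq (11.1%). The lowest p of the IP, 0.0022, was reached by Col4a4 regions 3 and 4, and the lowest of the RNA-seq, 0.0043, by Col4a4 regions 3, 4 and 5.

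Set against a widely expressed chain in the same animal, both glomerular chains were lower in db/db. This ratio, taken for each gene in its region with the most RNA-seq reads, does not depend on the scaling of a library. The log2 ratio of Col4a4 to Col4a1 was -1.93, -1.38 and -1.23 (lowest, median and highest) in db/db. In db/m it was -0.84, -0.30, -0.66, -1.06 and -0.73. Every db/db animal was below every db/m animal, and the difference was -0.79 (exact permutation p = 0.0022, 0.0029 after adjustment over 4 pairs). The ratio of Col4a4 to Col4a2 differed by -1.01 (exact permutation p = 0.0022, adjusted 0.0029) and that of Col4a3 to Col4a2 by -1.39 (exact permutation p = 0.0022, adjusted 0.0029), both without overlap. For Col4a3 to Col4a1 the difference was -1.18 (exact permutation p = 0.0087, adjusted 0.0087), with 5 of 6 db/db animals below every db/m animal. The 4 pairs reuse the same genes and are not independent of each other or of the single-region tests. How often ratios of other gene pairs separate the genotypes was not examined.

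The 4 differences stayed on the same side of the threshold without db/m animal 2, at -0.91 for Col4a3 to Col4a1, -1.13 for Col4a3 to Col4a2, -0.69 for Col4a4 to Col4a1 and -0.92 for Col4a4 to Col4a2, with adjusted exact permutation p of at most 0.029. When the most 3' region stood for each gene, a choice made after seeing the data, they were -0.97, -1.44, -0.92 and -1.40. Regions compared between genes lie at unequal distances from the 3' end.

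**Figure D3:**
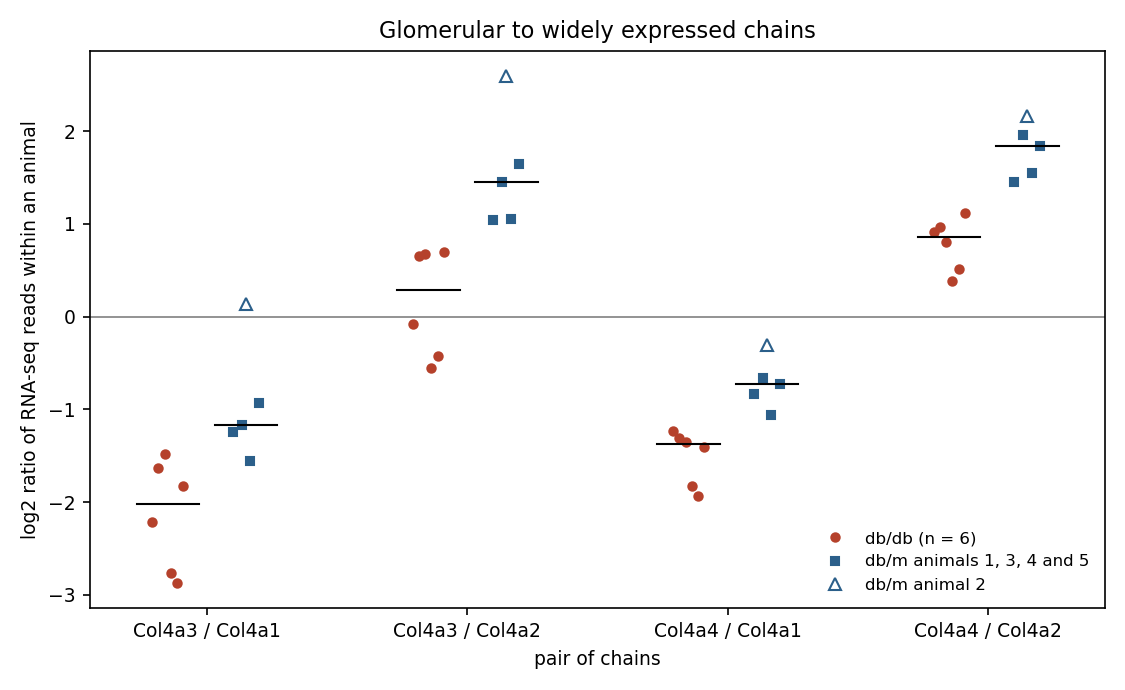
The log2 ratio of RNA-seq reads of a glomerular chain (Col4a3 or Col4a4) to a widely expressed chain (Col4a1 or Col4a2) in each animal, for the 4 pairs, with db/db in red, db/m in blue, db/m animal 2 as an open triangle and lines at the genotype medians. The genotypes are apart in 3 pairs and touch in the pair of Col4a3 and Col4a1.

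Enrichment of these regions by the antibody was read as the log2 ratio of IP to RNA-seq CPM in the same animal. Each library is scaled to its own reads, so the ratio is relative to other peaks and is not a share of transcripts. The peaks had been called by the authors on such an enrichment, so levels are a description. Col4a4 region 3 had the highest mean, 2.03 ± 0.24 (SD, n = 11), a ratio of 4.09, which was above 98.3% of 6724 peaks (those averaging 10 RNA-seq reads or more). Col4a3 region 2 followed at 1.75 ± 0.49 (SD, n = 11), above 96.7% of those peaks, and Col4a4 region 5 at 1.04 ± 0.32 (SD, n = 11). The remaining regions with fits lay between 0.21 and 0.92, all above the median of peaks, 0.08.

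Enrichment did not separate the genotypes in the fit. In the model of IP relative to RNA-seq, with each animal as a block, 0 of 30 type IV collagen peaks were called, against 0.0203% of all peaks in either direction. An unadjusted p under 0.05 (edgeR) was reached by 5 peaks in 3 regions. Col4a4 regions 1 and 3 were lower in db/db and Col4a2 region 3 was higher. The share of all peaks at that unadjusted threshold is not given. Col4a4 region 3 had a log2 ratio of 1.78 to 2.12 in db/db and 1.99, 2.70, 2.05, 2.05 and 2.02 in db/m. The db/m animal 2 was again the highest. Its relative log2 change was -0.24 (SE 0.10, adjusted p = 0.59, edgeR), and -0.094 without that animal (adjusted p = 0.92). By exact permutation 3 of 17 regions had p under 0.05, against 8.09% of all peaks, namely Col4a4 region 1 (p = 0.037), Col4a4 region 3 (p = 0.045) and Col4a2 region 1 (p = 0.041), each lower in db/db.

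**Figure D4:**
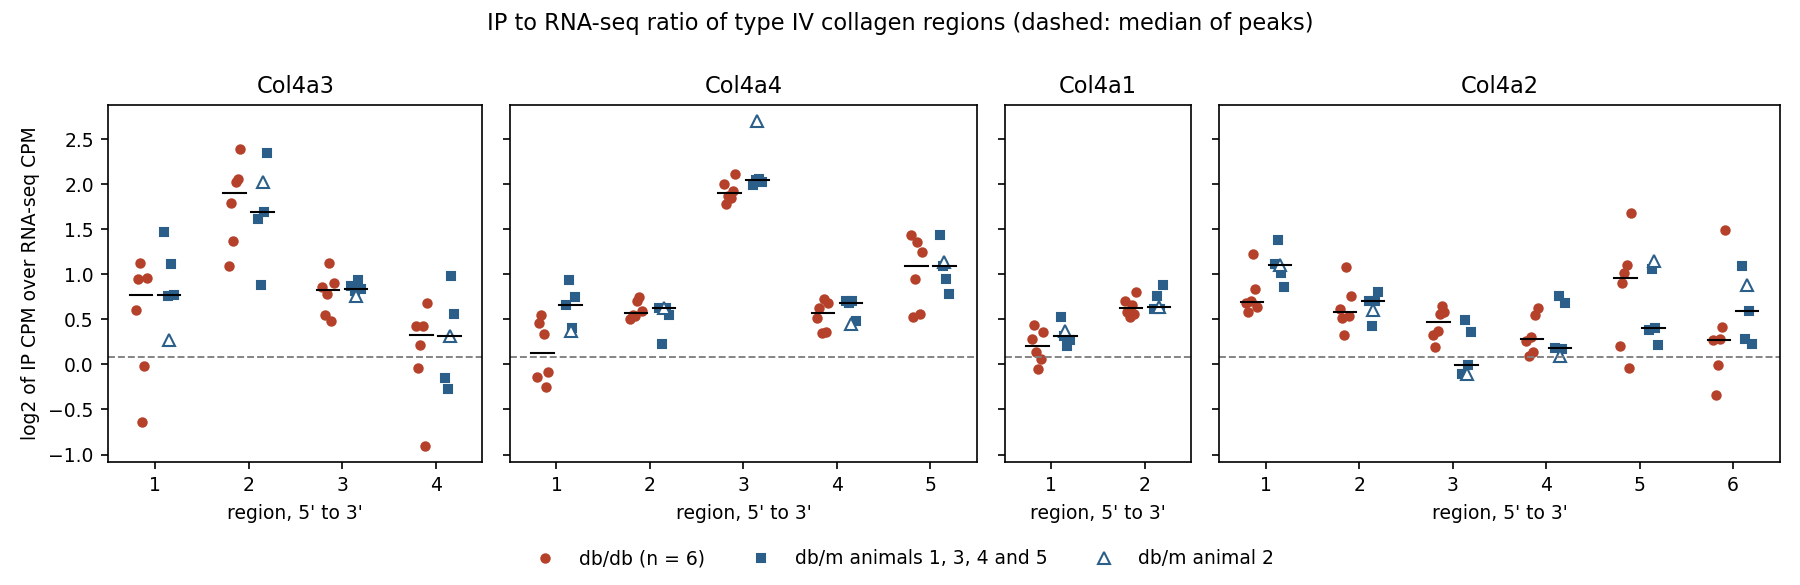
The log2 ratio of ac4C IP to RNA-seq CPM of each region in each animal, db/db in red and db/m in blue, with db/m animal 2 as an open triangle. The dashed line is the median over peaks, 0.08, and Col4a4 region 3 stands highest, at a mean of 2.03.

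Genes whose RNA-seq CPM followed those of a chain most closely over the 11 animals are given as a description, over 2949 genes averaging 10 RNA-seq reads or more, and the animals share genotype and index across all genes. Col4a4 was most like Wdr81 (Pearson r = 0.956), Tmem64 (0.946), Slc16a14 (0.940), Erlin2 (0.939) and Ipo8 (0.937). Col4a3 was most like Erlin2 (0.977), Tmem64 (0.959), Rgl1 (0.952), Wdr81 (0.947) and Lasp1 (0.944), so that Erlin2, Tmem64 and Wdr81 stood on both lists. For Col4a1 these were Tpm3 (0.890), Mtmr14 (0.877), Cflar (0.846), Rap1b (0.844) and Lmtk3 (0.842). Those of Col4a2 were Plekha5 (0.884), Klc1 (0.869), Rbbp7 (0.852), Ppp1cc (0.844) and Zeb1 (0.842), and none of the 5 was among those of Col4a1.

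Around the chains, the laminins, nidogens and other network partners had peaks in 21 of 36 listed genes, with 40 peaks. In the IP 3 peaks were called higher and 1 lower, and in the RNA-seq 1 higher and 1 lower, where all peaks were called at 1.59% higher and 1.72% lower in the IP and at 1.98% and 1.97% in the RNA-seq, with a median RNA-seq change of 0.20 against -0.01 over all peaks. Vwa1, which encodes a von Willebrand factor domain protein of basement membranes, fell from 133.8 ± 14.8 (SD, n = 5) to 47.8 ± 15.7 (SD, n = 6) RNA-seq CPM (log2 change -1.49, adjusted p = 3.6e-05, edgeR). Tinagl1, a secreted matrix protein, rose in the IP by 1.10 (adjusted p = 0.019, edgeR) and in the RNA-seq by 0.74 (adjusted p = 0.021, edgeR). Its IP relative to RNA-seq did not pass (adjusted p = 0.86, edgeR). Col8a1 was called higher in the RNA-seq on 31 reads only. The 3 partners with the highest RNA-seq CPM, Col18a1, Ntn4 and Sparc, had changes of 0.31, 0.16 and 0.13 and did not pass.

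Folding, crosslinking and export genes had peaks in 13 of 32 listed genes and 0 of 35 peaks called, with a median log2 change of -0.33 in both library types. In the RNA-seq 15 of the 35 passed the adjusted p as lower with no fold threshold, against 5.93% of all peaks. P4hb, a subunit of prolyl 4-hydroxylase, fell by 0.54 (adjusted p = 0.0010, edgeR) and the chaperone Hsp90b1 fell by 0.51 (adjusted p = 0.021, edgeR). Mia2, an export factor of the endoplasmic reticulum, had -0.33 (adjusted p = 0.099, edgeR). Receptors had 4 of 19 listed genes with a peak and 0 of 12 peaks called, and Bcam, a laminin receptor, had a RNA-seq change of 0.60 (adjusted p = 0.017, edgeR). Itgb1 and Sdc4, of the same list, had -0.13 and -0.02.

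Matrix degradation genes had peaks in 8 of 25 listed genes. Timp3, an inhibitor of metalloproteinases, gave the 2 called peaks of 15, both lower in the RNA-seq at -1.03 and -1.04, and Ctsl, a lysosomal protease, rose by 0.45 (adjusted p = 0.023, edgeR). Mmp24 had 0.22. Fibrillar and other collagens had peaks in 14 of 23 listed genes, and 11 of 40 peaks were called higher in the RNA-seq and 1 lower, against 1.98% and 1.97% of all peaks. Col27a1, a fibrillar collagen, held 10 of these 11, at 1.82 to 2.20, and Col13a1, a transmembrane collagen, the other at 3.05 on 40 reads. Col14a1 was lower at -1.38 (adjusted p = 0.0021, edgeR), and Col5a1 was called lower in the IP on 93 IP reads. Col6a1 and Col6a3 had 0.49 and -0.37 and did not pass. Regulators of the transcription of type IV collagen had 4 of 19 listed genes with a peak and 0 of 9 peaks called, with Smad2 at -0.30, Tgfb1 at 0.30 and Smad7 on 9 RNA-seq reads. The median RNA-seq change was 0.11 for receptors, 0.22 for degradation, 0.75 for other collagens and -0.20 for regulators. In the IP other collagens had 10 peaks called higher and 1 lower, and no peak of any list was called in the IP relative to RNA-seq.

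Marker genes of kidney cell types are given beside these values. Podocyte markers had a peak in 8 of 15 genes, with summed RNA-seq CPM of 422 to 525 in db/db and 369 to 451 in db/m. Of the 8, 0 passed as lower and 2 as higher, Synpo at 0.67 and Cdkn1c at 1.22, while Nphs1 was at 0.42 (adjusted p = 0.16, edgeR). Wt1, Plce1, Ptpro, Clic5, Tcf21 and Robo2 were among the markers with no peak. Endothelial markers (4 of 11 with a peak) summed to 392 to 716 CPM in db/db and 291 to 378 in db/m. Most of that sum was Plvap, at a mean of 563 CPM in db/db and 288 in db/m (log2 change 0.97, adjusted p = 0.00018, edgeR), while Kdr was at -0.40 (adjusted p = 0.13), Flt1 at 0.33 (adjusted p = 0.44) and Emcn had 4 reads. The sum of markers of mesangium and pericytes (7 of 12) was 96.1 to 139 CPM against 71.8 to 106, and 0 of the 7 passed. Most of it was Myh11, at a mean of 74.0 CPM in db/db and 53.4 in db/m, and Des, at 36.3 and 27.0. Pdgfrb, Pdgfra, Itga8 and Cspg4 had 3 to 14 reads. Proximal tubule markers, present as the kidney label implies in 6 of 10 genes, summed to 4229 to 6038 CPM in db/db and 7005 to 8026 in db/m, and 4 of the 6 passed as lower. The part of these cell markers in the type IV collagen values was not tested.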

How the data were processed

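Kidney poly(A) RNA of 6 db/db and 5 db/m animals was measured as ac4C immunoprecipitate (IP) and as RNA-seq input, giving 22 libraries. Per the study's methods, mRNA was fragmented to short pieces and, for the IP, pulled down with an antibody to ac4C before random-primed cDNA synthesis. The authors aligned filtered reads to the mouse genome (GRCm38 per the labels), called peaks once per genotype, and deposited whole-number read counts of each peak in each library. The aligner, peak caller and counter are not given in the sources used here, and the counts do not use strand. For each peak the authors also deposited a fold enrichment of IP over input (a ratio) and the peak caller's FDR, a p-value after correction. These were used as descriptions only. The deposited fold changes, p-values and FDRs of the authors' own comparison of genotypes were not used. Peak starts were counted from 0 in the deposited table: a start 1 base later matched a RefSeq gene boundary for 103 peaks, as given for 8, so positions are printed from 1.

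Type IV collagen peaks, the gene lists and the cell type markers were chosen with earlier results of these data known. Genes named from a list were its called peaks and the 3 genes with the highest RNA-seq CPM, and for each chain the 5 genes with the highest correlation. Some genes that this rule names are not reported here. Counts were tested with edgeR 4.0.16 in R 4.3.3 (TMM, glmQLFit and glmQLFTest, genotype only), with Benjamini-Hochberg adjustment over 9857 peaks and no filter, and a peak was called at an adjusted p under 0.05 with an absolute log2 change over 1. IP relative to RNA-seq was the interaction of library type and genotype over all 22 libraries, with animal as a block. Single values were tested by two-sided exact permutation over animals with 0.5 read added. Tested on simulated data with 200 of 9857 peaks changed, the IP fit recovered 174 with 6 false calls, the RNA-seq fit 157 with 3 and the relative fit 152 with 2. Of the changed peaks averaging at least 50 reads, 149 of 149, 118 of 118 and 142 of 142 were recovered. The planted log2 changes were 2 or 3 in either direction, larger than any given here for type IV collagen. No simulated library was set apart as db/m animal 2 was. Recovery of changes of the size seen here was not tested. Libraries held 3151035 to 10293757 reads in peaks, and 3 reads correspond to 0.857 to 0.981 CPM in the RNA-seq and 0.305 to 0.362 CPM in the IP. Reads without molecular identifiers are not independent molecules. Alternatives were DESeq2 1.42.0, no TMM, a filter on low counts, no adjustment, no fold threshold, 1 peak per overlapping group, the animal number as a block (without db/db animal 6), 1 read added, and each animal left out. The 5'-to-3' index as a covariate, the most 3' region for the chain ratios and the animals left out of the 5'-to-3' ratio were added after seeing the data. Same-numbered animals of the 2 genotypes did not deviate together, with correlations of -0.22 to 0.17 in the IP and -0.36 to 0.48 in the RNA-seq over 5 numbers.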

Additional observations from a re-analysis of the deposited data

Results flagged for a closer look

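Of 104 groups of values examined, 25 held a sample whose gap to its nearest neighbour exceeded the 95% critical value of Dixon's test, where chance gives about 1 in 20. In 22 of the 25 that sample was db/m animal 2. Its CPM in the IP and in the RNA-seq were 108 and 89.5 for Col4a3 region 1, 142 and 34.7 for region 2, and 547 and 324 for region 3. For Col4a4 they were 161 and 124 in region 1, 237 and 154 in region 2, 1505 and 232 in region 3, and 328 and 239.8 in region 4. Among the widely expressed chains they were 229 and 177 in Col4a1 region 1, 132 and 61.4 in Col4a2 region 1, and 44.2 and 29.0 in Col4a2 region 2. The other db/m animals lay at 510 to 585 IP CPM in Col4a4 region 3 and at 12.8 to 19.3 RNA-seq CPM in Col4a3 region 1. The same animal had a 5' to 3' region log2 ratio of -1.004 in the IP of Col4a1, against -2.21 to -1.87 in the other db/m animals, and of 1.66 in the RNA-seq of Col4a4, against 0.17 to 0.42. Its index over other genes, 0.46 in the RNA-seq and 0.62 in the IP, was also the highest of the 11 animals.

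The remaining 3 samples were other animals. In the IP of Col4a2 region 5 db/m animal 5 had 16.7 CPM, against 24.0 to 26.2 in the other db/m animals. In the IP of Col4a6 region 1 db/db animal 2 had 2.16 CPM, or 20 reads, with at most 0.459 CPM in the other db/db animals. In the RNA-seq of Col4a6 region 2 db/db animal 3 had 0.286 CPM, the only RNA-seq read of that region.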

How the results depend on the processing

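The 9 Col4a3 and Col4a4 regions stayed below 0 in the IP and in the RNA-seq under every alternative run, except that Col4a3 region 2 fell under the count filter of the RNA-seq and was not fitted there. How many peaks were called did not stay. The 4 type IV collagen peaks called in the IP became 9 at an unadjusted p, 10 with no fold threshold, 2 without TMM, 2 with 1 peak per overlapping group and 0 with the 5'-to-3' index as a covariate. The 3 called in the RNA-seq became 11 with no fold threshold, 1 without TMM and 1 with the index. Leaving out animals gave 0 to 11 in the IP, with 11 when db/db animal 3 was left out, 2 for db/db animals 1, 2 and 4 and db/m animal 5, and 0 for db/db animal 5 and db/m animal 2. In the RNA-seq it gave 0 to 10, with 10 for db/db animal 3, 7 for db/m animals 1 and 4, and 0 for db/db animals 1, 4 and 5 and db/m animal 2. Over the 6 lists, 15 peaks called in the IP became 31 with no fold threshold and 9 with 1 peak per overlapping group. The 16 called in the RNA-seq became 45 with no fold threshold and 26 with the index, and the 0 called in the relative fit became 4 at an unadjusted p. Regions with an exact permutation p under 0.05, animals left out, numbered 5 to 9 in the IP, 5 to 11 in the RNA-seq and 0 to 3 for the IP to RNA-seq ratio, and the lowest count of the IP and RNA-seq was without db/m animal 2. The cause of these changes was not tested.

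Signs turned for 7 values, none of which passed the test. The IP change of Col4a1 region 2 was 0.087 without TMM, 0.025 with 1 peak per overlapping group, 0.053 with the index, and -0.061 to 0.065 with animals left out. That of Col4a2 region 1 was 0.13 with the index and -0.51 to 0.29 with animals left out. In the RNA-seq the ranges with animals left out were -0.47 to 0.094 for Col4a1 region 1, -0.021 to 0.13 for Col4a1 region 2 and -0.24 to 0.58 for Col4a2 region 1. The 5' to 3' region log2 ratio ranged from -0.61 to 0.041 for Col4a2 and from -0.19 to 0.19 for Col4a3. The 4 chain ratios passed under every alternative, with ranges over animals left out of -1.33 to -0.91, -1.52 to -1.13, -0.88 to -0.69 and -1.09 to -0.92. The glomerular median of -0.95 in the RNA-seq and -1.10 in the IP was -0.57 and -0.69 without db/m animal 2, and -0.91 and -1.04 without db/db animal 6. The fit with the animal number as a replicate block left out db/db animal 6, which has no db/m animal of its number. In that fit 6 type IV collagen peaks were called in the IP and 4 in the RNA-seq, and all 9 glomerular regions passed the adjusted p in both. The effect of the block was not separated from that of the animal left out. The relative fit without the block, on all animals, still called 0. The numbers do not pair the animals. At this depth no fold could be given for Col4a6, and positions within peaks were not resolved.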
